A study of Mus musculus with 15 samples.

Results

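The genes described here are 10 members of the immediate-early and stress response: Fosb, Jun, Junb, Jund, Atf3, Egr2, Ier2, Zfp36, Ppp1r15a and Btg2. All 10 had a value, among 22206 rows of values, 15303 of which could be given an identifier and 13538 a gene name. RNA was measured on Affymetrix arrays in 3 groups of cells from wild-type C57BL/6 mouse hearts, with 5 arrays per group and mice aged 8 to 12 weeks. EpiSC were stromal cells of the epicardium, collected 5 days after myocardial infarction. The aCF group held activated cardiac fibroblasts collected at the same time after infarction. CF were cardiac fibroblasts of control hearts that were not stressed. A sham-operated group is not among the samples, and the labels do not say which arrays came from the same heart.

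Every heart was perfused with collagenase, per the labels' protocols. Shear applied in the same enzyme released the EpiSC from the surface of infarcted hearts, and the step was not used for CF. The aCF and CF came from ventricular tissue that was pulled apart, pipetted, strained and spun to leave heart muscle cells behind, whereas EpiSC were spun down from the overflow. The protocol text in the labels ends in mid-sentence, so any later step, such as a sort, is not known here. By the steps given, EpiSC and aCF differed in cell type and in isolation, and aCF and CF in infarction and in the shear step. EpiSC and CF differed in all of these. Within each comparison the factors that differed cannot be told apart. In RNA from many cells, fewer cells of a type and less RNA per cell cannot be told apart either.

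Immediate-early genes are switched on within minutes of a stimulus by factors already present in the cell, without new protein synthesis. Serum response factor with its ternary complex partners, bound to CArG boxes, and CREB, bound to cAMP response elements, drive many of them. Their transcripts are short-lived. Some of the proteins, such as the AP-1 subunits and EGR factors, switch on a later wave of genes, while others, such as Zfp36, end the response by promoting the decay of unstable mRNAs. Dissociation of tissue with enzymes is known to induce these genes in freshly isolated cells.

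The gene names rest on an inferred displacement between identifiers and values that no header or label states. Each identifier was paired with the values 6900 rows further down, or 6903 rows for identifiers of chromosomes 10 and 11. After this pairing the 10 genes had a mean pairwise Pearson correlation of 0.63 over the deviations of 15 arrays from their group means. Without it, with identifiers as deposited, the correlation was 0.03. Of 8717 offsets tried, the highest at any but the one used was 0.23. The members were chosen with earlier results of these data known, so this check is not independent of that choice. Egr2, on chromosome 10, is the 1 member that depends on the additional 3 rows. Its correlation with the mean of the other 9 was 0.45 with those rows and 0.22 without them, and 3 of 21 additional offsets gave a higher one, the highest 0.73. The 12 cell type markers on chromosomes 10 and 11 had a mean correlation with their lists of 0.51 with the 3 rows and 0.07 without, against at most 0.32 at another additional offset. The row of Egr2 is thus less sure than the rows of the other members. Fos, Egr1, Nr4a1, Dusp1 and other genes from the later part of chromosome 11 to chromosome 19 were not analysed here.

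Promoters of 9 of the 10 genes were matched by symbol in RefSeq (GRCm38.p6), as windows of 250 bases before to 50 bases after the start of the gene. Ier2 has no entry. The windows were searched for a CArG box (the serum response factor motif, CC, then 6 bases of A or T, then GG), for the full cAMP response element TGACGTCA, for the partial element TGACG on either strand, for the AP-1 motif TGANTCA, for the EGR motif GCGNGGGCG and for the TATA box TATAAA. In the first listed window of each gene the CArG box was found in 1 of 9, that of Zfp36, against 1.57% of 27025 promoters of the same length. TGACGTCA was found in 2 of 9, those of Ppp1r15a and Btg2, against 1.88% of all promoters. TGACG, which the full element contains, was found in 5 of 9 against 21% of all promoters. TGANTCA was found in 0 of 9 against 7.93% of all promoters. GCGNGGGCG was found in 3 of 9, those of Fosb, Zfp36 and Btg2, against 5.55%, and TATAAA in 2 of 9, those of Junb and Ppp1r15a, against 14.2%. Neither TATAAA lay before the listed start: they began at base 1 after it in Junb and at base 16 in Ppp1r15a. Egr2 has 5 listed starts, and a CArG box lay in 4 of those windows but not in the first. The sequences below are shown because they hold the full elements of the set, with Fosb as a member with the partial element alone; all are 5′ to 3′ on the strand of the gene, and capitals mark CArG boxes, TGACGTCA and TGACG or its reverse complement.
Zfp36 (chr7:28379179-28379478, minus strand): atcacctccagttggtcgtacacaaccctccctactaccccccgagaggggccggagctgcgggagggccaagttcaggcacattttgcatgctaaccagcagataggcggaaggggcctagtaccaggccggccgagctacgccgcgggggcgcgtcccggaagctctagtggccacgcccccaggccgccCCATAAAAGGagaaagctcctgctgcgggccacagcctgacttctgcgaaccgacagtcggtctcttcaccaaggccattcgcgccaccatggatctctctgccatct
Egr2, listed start 3 (chr10:67537619-67537918, plus strand): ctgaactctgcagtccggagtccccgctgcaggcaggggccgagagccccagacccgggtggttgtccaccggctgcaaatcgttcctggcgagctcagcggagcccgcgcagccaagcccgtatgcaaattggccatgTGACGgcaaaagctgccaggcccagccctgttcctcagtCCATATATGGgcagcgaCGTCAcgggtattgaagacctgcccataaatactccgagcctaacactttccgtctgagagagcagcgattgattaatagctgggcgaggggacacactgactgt
Ppp1r15a (chr7:45526219-45526518, minus strand): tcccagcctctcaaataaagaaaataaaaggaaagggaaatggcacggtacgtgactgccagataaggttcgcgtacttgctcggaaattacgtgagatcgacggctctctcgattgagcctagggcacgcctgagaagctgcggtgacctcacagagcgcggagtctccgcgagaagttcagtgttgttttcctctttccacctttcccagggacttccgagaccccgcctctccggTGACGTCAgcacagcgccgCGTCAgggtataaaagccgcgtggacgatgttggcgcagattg
Btg2 (chr1:134079106-134079405, minus strand): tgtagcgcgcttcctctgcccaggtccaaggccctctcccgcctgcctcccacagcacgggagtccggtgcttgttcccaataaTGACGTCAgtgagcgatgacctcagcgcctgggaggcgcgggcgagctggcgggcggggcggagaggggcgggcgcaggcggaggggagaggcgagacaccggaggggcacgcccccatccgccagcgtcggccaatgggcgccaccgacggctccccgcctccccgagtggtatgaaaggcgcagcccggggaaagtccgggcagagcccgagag
Fosb (chr7:19309996-19310295, minus strand): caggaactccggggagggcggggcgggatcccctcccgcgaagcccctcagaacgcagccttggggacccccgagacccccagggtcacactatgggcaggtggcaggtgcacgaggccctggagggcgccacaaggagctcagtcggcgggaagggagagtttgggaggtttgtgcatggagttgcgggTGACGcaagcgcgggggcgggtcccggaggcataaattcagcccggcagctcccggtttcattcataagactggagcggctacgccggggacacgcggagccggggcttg
The CArG box of Zfp36 begins 58 bases before its start and that of the Egr2 window 72 bases before. The TGACGTCA of Ppp1r15a begins 12 bases before its start, and that of Btg2 166 bases before. A match describes the letters of a window and is not evidence of binding in these cells.

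All values are log2 expression minus the median of the same probe set over the 15 arrays. A value of 0 therefore marks the middle array and not a low level, and levels cannot be compared between genes. The nearest other array, by correlation over the 13538 rows with a gene name, was of the same group for 15 of 15 arrays. Over the same rows, correlations between arrays of a group ran from 0.544 to 0.668 for EpiSC, from 0.229 to 0.545 for aCF and from 0.749 to 0.850 for CF. Wt1, a transcription factor that marks epicardium, averaged 1.98 ± 0.37 in EpiSC, -0.03 ± 0.22 in aCF and -0.20 ± 0.19 in CF (SD, n = 5 each). Col1a1, a chain of type I collagen, averaged -0.04 ± 0.10 in EpiSC, 0.20 ± 0.03 in aCF and -0.98 ± 0.12 in CF. It lies on chromosome 11, so its row rests on the additional 3 rows. Most of the fibroblast list ran the other way against CF. Of 12 fibroblast markers, 9 were lower and 3 higher in EpiSC than in CF, and 8 lower and 4 higher in aCF than in CF. Whether a marker is absent from a group cannot be read from centred values.

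**Figure D1:**
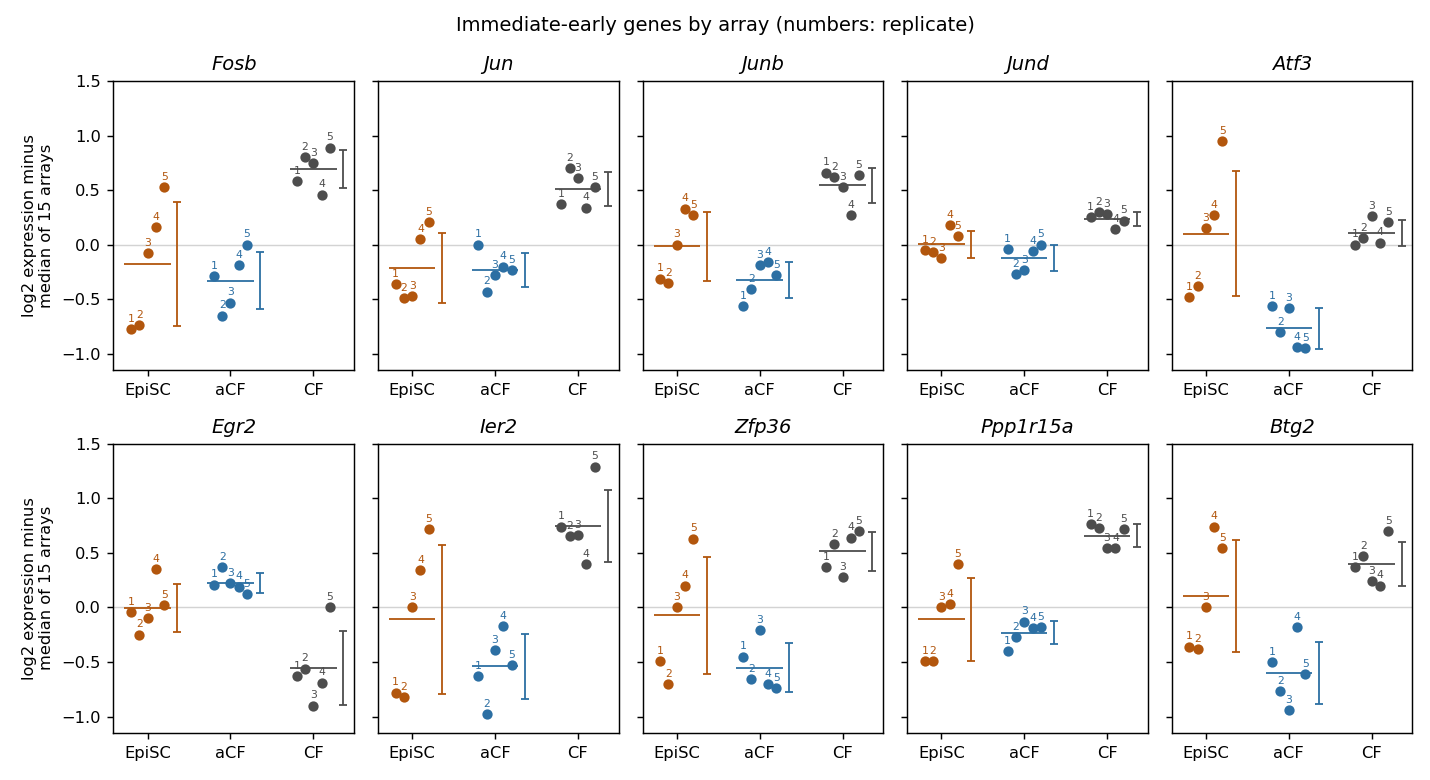
Each panel shows 1 gene. Points are arrays, numbered by replicate, with log2 expression minus the median of 15 arrays on the vertical axis and EpiSC, aCF and CF from left to right; horizontal lines are group means and brackets span ± 1 SD (n = 5). CF has the highest mean in 9 of 10 genes, and the EpiSC points are spread more widely than those of aCF in 10 of 10. Both counts include a near tie: the mean of Atf3 is 0.11 in CF and 0.10 in EpiSC, and the SD of Jund is 0.123 in EpiSC and 0.121 in aCF.

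The design compared activated with control fibroblasts, and all 10 genes differed in it. In aCF, Fosb, Jun, Junb, Jund, Atf3, Ier2, Zfp36, Ppp1r15a and Btg2 fell against CF, and Egr2 rose, at a Benjamini-Hochberg adjusted p below 0.05 in limma over all rows. That made 10 of 10 genes, 9 lower and 1 higher, against 18.1% of all rows (9.38% lower and 8.74% higher). In the same 9 genes every aCF array lay below every CF array, against 6.84% of all rows, and in Egr2 every aCF array lay above, against 7.88%. The median difference of the 10 was -0.88 on the log2 scale, against -0.02 over all rows. With the stricter Bonferroni adjustment that the series design text names, 1 of 10 passed, Ppp1r15a, against 1.53% of all rows (0.32% lower and 1.21% higher).

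Among the AP-1 subunits, Fosb, which acts as a dimer with Jun proteins, stood at -0.29, -0.65, -0.53, -0.19 and 0.00 in aCF1 to aCF5 and at 0.58, 0.80, 0.75, 0.46 and 0.89 in CF1 to CF5. The groups did not overlap, and the nearest arrays were aCF5, the highest of aCF, and CF4, the lowest of CF. The difference for Fosb was -1.03 ± 0.13 (SE), with a Benjamini-Hochberg adjusted p of 0.000408 and a Bonferroni adjusted p of 0.209. Jun, the subunit that gave the family its name, stood at 0.00, -0.43, -0.28, -0.20 and -0.23 in aCF and at 0.37, 0.70, 0.61, 0.34 and 0.53 in CF. Only aCF1 approached the CF arrays. The difference for Jun was -0.74 ± 0.10, with a Benjamini-Hochberg adjusted p of 0.000468. Junb, a Jun protein that often restrains Jun, stood at -0.56, -0.41, -0.19, -0.16 and -0.28 in aCF and at 0.66, 0.62, 0.53, 0.27 and 0.64 in CF. CF4 was the low array of CF for Junb, Fosb, Jun, Jund and Ier2. The difference for Junb was -0.86 ± 0.10, with a Benjamini-Hochberg adjusted p of 0.000226 and a Bonferroni adjusted p of 0.0923. Jund, the Jun protein typically present in resting cells, stood at -0.04, -0.27, -0.23, -0.06 and 0.00 in aCF and at 0.25, 0.30, 0.28, 0.14 and 0.22 in CF. Its groups were separate but close, and the difference of -0.36 ± 0.07 was the smallest of the 10 in size (Benjamini-Hochberg adjusted p 0.00456).

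Atf3, a stress-induced factor of the ATF family, stood at -0.56, -0.80, -0.58, -0.94 and -0.95 in aCF1 to aCF5 and at 0.00, 0.06, 0.26, 0.02 and 0.21 in CF1 to CF5. The difference for Atf3 was -0.88 ± 0.10, with a Benjamini-Hochberg adjusted p of 0.000171 and a Bonferroni adjusted p of 0.0602. Ier2, a nuclear protein of the early growth factor response, stood at -0.63, -0.98, -0.39, -0.17 and -0.53 in aCF and at 0.74, 0.65, 0.66, 0.40 and 1.29 in CF. CF5 was the highest of all 15 arrays for Ier2. The difference of -1.29 ± 0.18, or 2.44-fold lower in aCF, was the largest of the set in size (Benjamini-Hochberg adjusted p 0.000754). Egr2, a zinc finger factor of the EGR family, ran the other way, at 0.21, 0.37, 0.22, 0.19 and 0.12 in aCF and at -0.63, -0.56, -0.90, -0.69 and 0.00 in CF. CF5 stood apart from the other CF arrays and close to aCF5. The difference for Egr2 was 0.78 ± 0.14, with a Benjamini-Hochberg adjusted p of 0.00376, and without the additional 3 rows of displacement it was -0.37, so its direction rests on that step.

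The remaining 3 genes encode proteins that limit a response. Zfp36, which binds AU-rich mRNAs and promotes their decay, stood at -0.45, -0.66, -0.21, -0.70 and -0.74 in aCF1 to aCF5 and at 0.37, 0.58, 0.28, 0.64 and 0.70 in CF1 to CF5. Its difference was -1.07 ± 0.12, or 2.09-fold lower in aCF, with a Benjamini-Hochberg adjusted p of 0.000187 and a Bonferroni adjusted p of 0.0701. Btg2, an antiproliferative protein and p53 target, stood at -0.50, -0.77, -0.94, -0.18 and -0.61 in aCF and at 0.37, 0.47, 0.24, 0.20 and 0.70 in CF. The nearest arrays of the groups were aCF4 and CF4, and the difference for Btg2 was -0.996 ± 0.143 (Benjamini-Hochberg adjusted p 0.000928). Ppp1r15a, the stress-induced subunit that directs a phosphatase to the translation factor eIF2, stood at -0.40, -0.27, -0.13, -0.19 and -0.18 in aCF and at 0.76, 0.73, 0.54, 0.54 and 0.72 in CF. Both groups were tight, with an SD of 0.11 in aCF and 0.11 in CF. The difference of -0.89 ± 0.07, or 1.86-fold lower in aCF, had a Bonferroni adjusted p of 0.00326. That call was kept with each array left out in turn, at adjusted p values from 0.00822 to 0.0235. It was lost when all 15 arrays shared 1 fit (0.397), with a trended and robust variance (0.0792), and without aCF4 and aCF5 together (0.0874).

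The Bonferroni count of the set depended on single arrays. It was 2 of 10 without aCF3 (Zfp36 added, adjusted p 0.0206), without CF4 (Junb added, 0.0364) and without CF5 (Egr2 added, 0.022). The Benjamini-Hochberg count was 10 of 10, 9 lower and 1 higher, with each array left out in turn, under each other fit run on these pairs of identifiers and values, and without aCF4 and aCF5 together.

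**Figure D2:**
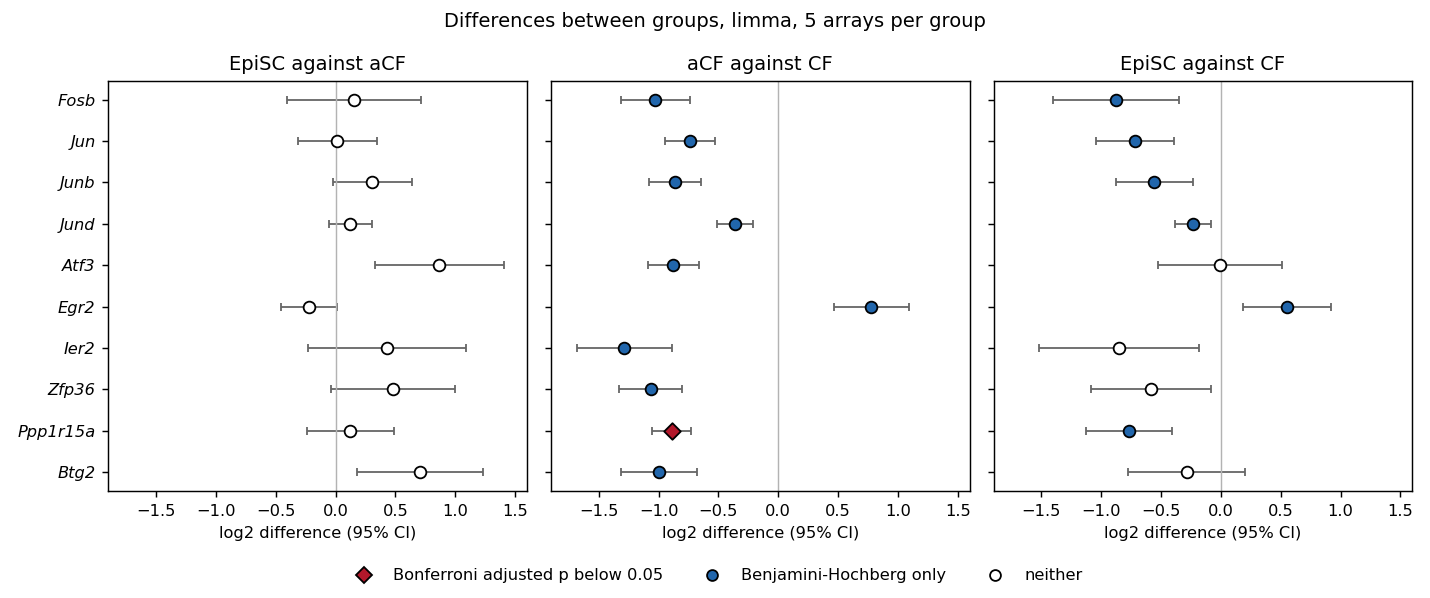
Log2 differences of the 10 genes in 3 comparisons, with 95% confidence intervals from limma (5 arrays per group). In aCF against CF no interval crosses 0 and 9 lie below it; in EpiSC against aCF the intervals of 8 genes cross 0.

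EpiSC and aCF, the other pair named in the series design, both came from infarcted hearts. No member passed the test between them in limma with either adjustment: 0 of 10 by Bonferroni against 0.666% of all rows, and 0 of 10 by Benjamini-Hochberg against 9.61% (4.61% higher and 5.01% lower). At an unadjusted p below 0.05 in limma there were 2 of 10, Atf3 and Btg2, against 5317 of 22206 rows. The difference was positive in 9 of 10 genes, Egr2 being the exception, with a median of 0.23 against 0.01 over all rows. In 1 of 10 genes, Atf3, every EpiSC array lay above every aCF array, against 5.18% of all rows. A miss of the threshold does not show that the groups are alike, and the intervals given below show what size of difference remains possible. With single arrays left out the Benjamini-Hochberg count was 0 or 1: Atf3 passed without EpiSC1 (adjusted p 0.0286), EpiSC2 (0.0405) or EpiSC5 (0.0453), and Egr2, lower in EpiSC, passed without EpiSC4 (0.0404). With all 15 arrays in 1 fit, Atf3 (0.0121) and Btg2 passed, both higher in EpiSC. Atf3 also passed with quantile normalization (0.013) and with only rows that have an identifier (0.031), but not with a trended and robust variance (0.0681) or without aCF4 and aCF5 together (0.192).

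Against CF, 6 of 10 genes passed Benjamini-Hochberg in EpiSC, against 32.2% of all rows. Fosb, Jun, Junb, Jund and Ppp1r15a fell in EpiSC (5 lower, against 17.7% of rows) and Egr2 rose (1 higher, against 14.5%). By Bonferroni 0 of 10 passed, against 2.91% of all rows (1.97% higher). In limma 8 of 10 had an unadjusted p below 0.05, against 9473 of 22206 rows. EpiSC arrays lay wholly below CF arrays in 2 of 10 genes, Jun and Ppp1r15a, against 11.8% of all rows. The median difference was -0.57, against -0.01 over all rows. The Benjamini-Hochberg count ran from 4 of 10 to 8 of 10 with single arrays left out; it was 4 without CF1, CF2 or CF3 and 8 without EpiSC5. Fosb, Jun, Junb and Ppp1r15a were called in each of the 10 omissions. Egr2 missed the threshold without EpiSC4 (adjusted p 0.0571), CF1 (0.0584), CF2 (0.0522), CF3 (0.063) or CF4 (0.059), and Jund without EpiSC1 (0.0535), EpiSC2 (0.0561), EpiSC3 (0.0556), CF1 (0.0542), CF2 (0.062) or CF3 (0.0601). Ier2 passed without EpiSC4 (0.0462) or EpiSC5 (0.0147), and Zfp36 without EpiSC5 (0.0123). The 3 comparisons share their arrays in pairs, so they are not independent of one another.

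The EpiSC arrays disagreed among themselves in these genes. Fosb stood at -0.77, -0.74, -0.08, 0.16 and 0.53 in EpiSC1 to EpiSC5. EpiSC1 and EpiSC2 were below every aCF array for Fosb, whereas EpiSC5 was above the lowest CF array. Fosb differed by 0.15 ± 0.25 from aCF (95% confidence interval -0.41 to 0.71, Benjamini-Hochberg adjusted p 0.77) and fell by 0.88 on the log2 scale against CF (SE 0.24, adjusted p 0.0178). Jun stood at -0.36, -0.49, -0.47, 0.05 and 0.21 in EpiSC, with EpiSC4 and EpiSC5 above all aCF arrays and below all CF arrays. Jun differed by 0.02 ± 0.15 from aCF (interval -0.31 to 0.35, adjusted p 0.964) and by -0.72 ± 0.15 from CF (adjusted p 0.00411). Junb stood at -0.31, -0.35, 0.00, 0.33 and 0.27 in EpiSC. EpiSC4 and EpiSC5 reached the lowest CF value for Junb, 0.27 in CF4. Junb differed by 0.31 ± 0.15 from aCF (interval -0.02 to 0.64, adjusted p 0.243) and by -0.56 ± 0.15 from CF (adjusted p 0.0154). Jund stood at -0.05, -0.07, -0.12, 0.18 and 0.08 in EpiSC, a spread close to that in aCF. Jund differed by 0.12 ± 0.08 from aCF (interval -0.06 to 0.31, adjusted p 0.407) and by -0.23 ± 0.07 from CF (adjusted p 0.0262).

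Atf3 stood at -0.48, -0.38, 0.15, 0.27 and 0.95 in EpiSC1 to EpiSC5. EpiSC3, EpiSC4 and EpiSC5 were within or above the CF range of Atf3, and EpiSC1 and EpiSC2 lay between aCF and CF. Its difference from aCF was 0.87 ± 0.24 (interval 0.33 to 1.41), the largest of the set in this comparison, with a Benjamini-Hochberg adjusted p of 0.0508. From CF, Atf3 differed by -0.01 ± 0.24 (interval -0.53 to 0.51, adjusted p 0.984). Ier2 stood at -0.78, -0.82, 0.00, 0.34 and 0.72 in EpiSC, spanning from within the aCF range to within the CF range. Ier2 differed by 0.43 ± 0.30 from aCF (interval -0.23 to 1.09, adjusted p 0.427) and by -0.86 ± 0.30 from CF (interval -1.52 to -0.19, adjusted p 0.052). Egr2 stood at -0.04, -0.25, -0.10, 0.35 and 0.02 in EpiSC, between the bulk of both fibroblast groups and overlapping each. Egr2 differed by -0.23 ± 0.11 from aCF (interval -0.46 to 0.01, adjusted p 0.227) and by 0.55 ± 0.16 from CF (adjusted p 0.0266), the second of which was -0.53 without the additional 3 rows.

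Zfp36 stood at -0.49, -0.70, 0.00, 0.20 and 0.63 in EpiSC1 to EpiSC5, with EpiSC1 and EpiSC2 inside the aCF range and EpiSC5 inside the CF range. Zfp36 differed by 0.48 ± 0.23 from aCF (interval -0.04 to 1.00, adjusted p 0.247) and by -0.59 ± 0.23 from CF (interval -1.09 to -0.08, adjusted p 0.072). Btg2 stood at -0.36, -0.38, 0.00, 0.74 and 0.54 in EpiSC. EpiSC4 was the highest of all 15 arrays for Btg2, and EpiSC1 and EpiSC2 lay inside the aCF range. Btg2 differed by 0.71 ± 0.24 from aCF (interval 0.18 to 1.23, adjusted p 0.0945) and by -0.29 ± 0.22 from CF (interval -0.78 to 0.20, adjusted p 0.355). Ppp1r15a stood at -0.49, -0.49, 0.00, 0.03 and 0.40 in EpiSC, all below the CF arrays. Ppp1r15a differed by 0.12 ± 0.16 from aCF (interval -0.24 to 0.49, adjusted p 0.705) and by -0.77 ± 0.16 from CF (adjusted p 0.00495).

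The split among EpiSC arrays ran through the set. EpiSC4 and EpiSC5 were the highest EpiSC arrays in 10 of 10 genes, and EpiSC1 and EpiSC2 the lowest in 7 of 10. The SD over the EpiSC arrays was larger than over the aCF arrays in 10 of 10 genes and than over the CF arrays in 9 of 10, Egr2 being the exception. For Jund it was nearly equal in EpiSC (0.123) and aCF (0.121). The median SD of the 10 genes was 0.447 in EpiSC against 0.162 for all 13538 named rows, with 9 of 10 genes above that median. In aCF it was 0.177 against 0.143 (7 of 10 above), and in CF 0.167 against 0.118 (7 of 10 above). No single array was far enough from the rest of its group to stand out by Dixon's test in any of the 30 gene and group combinations.

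**Figure D3:**
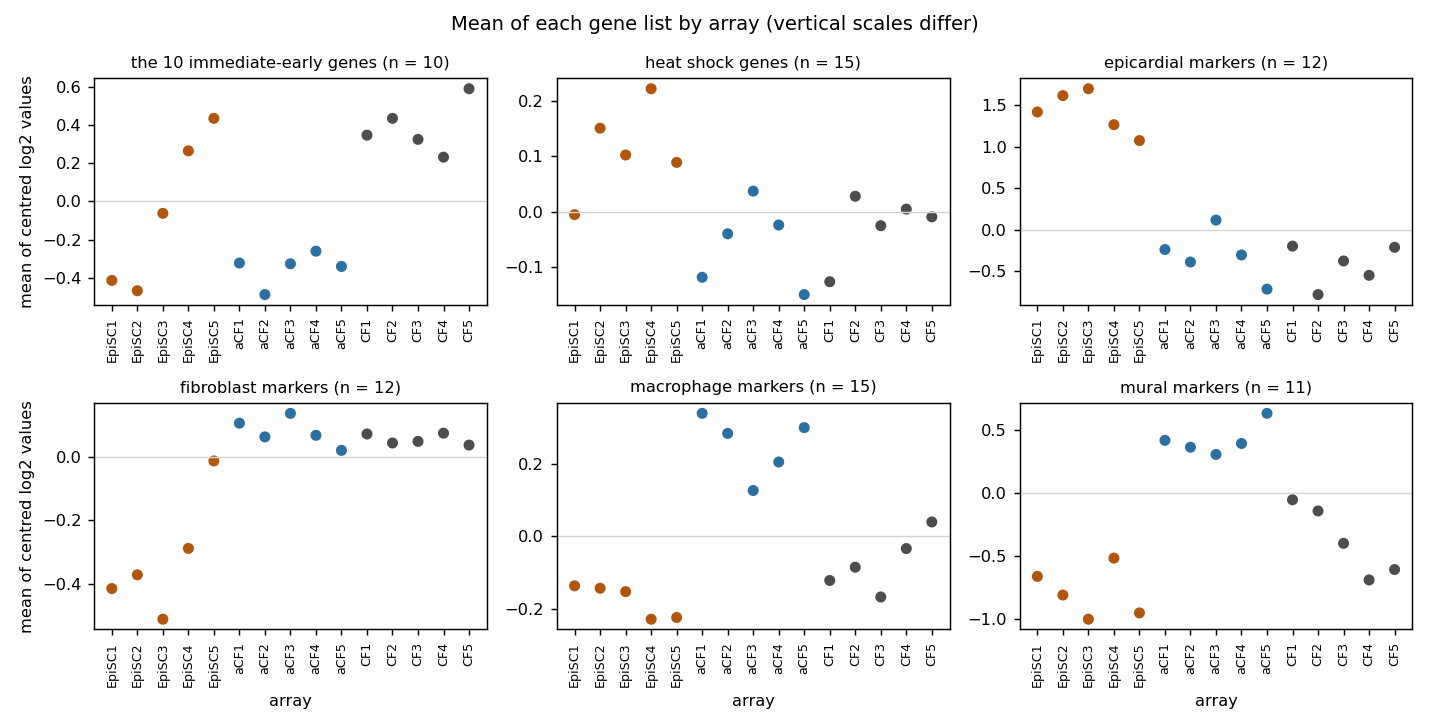
Mean of the centred log2 values of a gene list on each array, for the 10 immediate-early genes, heat shock genes and 4 cell type marker lists, with EpiSC (orange), aCF (blue) and CF (grey) from left to right and a scale of its own in each panel. The immediate-early mean is -0.47 in EpiSC2 and 0.44 in EpiSC5. Over the 5 EpiSC arrays the epicardial mean runs from 1.07 in EpiSC5 to 1.69 in EpiSC3.

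The mean of the 10 genes was -0.41, -0.47, -0.06, 0.27 and 0.44 in EpiSC1 to EpiSC5, -0.32, -0.49, -0.33, -0.26 and -0.34 in aCF1 to aCF5, and 0.35, 0.44, 0.33, 0.23 and 0.59 in CF1 to CF5. By this mean, EpiSC1 and EpiSC2 sat with the aCF arrays, EpiSC4 and EpiSC5 with the CF arrays, and EpiSC3 between them. The mean includes Egr2, which was lowest in CF. Gene by gene, the EpiSC arrays at or above the lowest CF array numbered 0 for Jun and Ppp1r15a and 1 for Fosb, Jund, Ier2 and Zfp36. They numbered 2 for Junb and Btg2 and 3 for Atf3. The mean of 12 epicardial markers of 17 listed was 1.42, 1.61, 1.69, 1.26 and 1.07 in the same 5 EpiSC arrays, and it ran from -0.71 to 0.12 in aCF and from -0.78 to -0.20 in CF. The mean of 12 fibroblast markers of 16 listed was -0.42, -0.37, -0.51, -0.29 and -0.01 in the EpiSC arrays, and it ran from 0.02 to 0.14 in aCF and from 0.04 to 0.07 in CF. EpiSC4 and EpiSC5, the high arrays of the immediate-early genes, had the lowest epicardial and the highest fibroblast means of the 5. The part of cell makeup in the split was not tested.

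In 2 of 5 other cell type lists the array means of aCF and CF did not overlap. The mean of 11 pericyte and smooth muscle markers of 15 listed ran from 0.30 to 0.63 in aCF and from -0.69 to -0.06 in CF. The mean of 15 macrophage and monocyte markers of 19 ran from 0.13 to 0.34 in aCF and from -0.17 to 0.04 in CF. By Benjamini-Hochberg 6 of the 11 mural markers were higher and 1 lower in aCF, and 6 of the 15 macrophage markers were higher and 0 lower. Of all rows, 8.74% were higher and 9.38% lower by that rule. Heart muscle markers (15 of 22) ran from -0.50 to 0.29 in aCF and from 0.14 to 0.39 in CF, with overlap. In aCF4 and aCF5, the arrays left out together above, their mean was -0.50 and -0.42. In aCF1 to aCF3 it was 0.02, 0.18 and 0.29. The endothelial mean was also lowest of aCF in aCF4 (-0.18) and aCF5 (-0.07). Endothelial markers (12 of 16) ran from -0.18 to 0.36 in aCF and from 0.19 to 0.52 in CF, also with overlap, as did neutrophil markers (9 of 12), from -0.03 to 0.02 in aCF and from -0.06 to 0.01 in CF. Their part in the fall of the immediate-early genes was not tested.

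**Figure D4:**
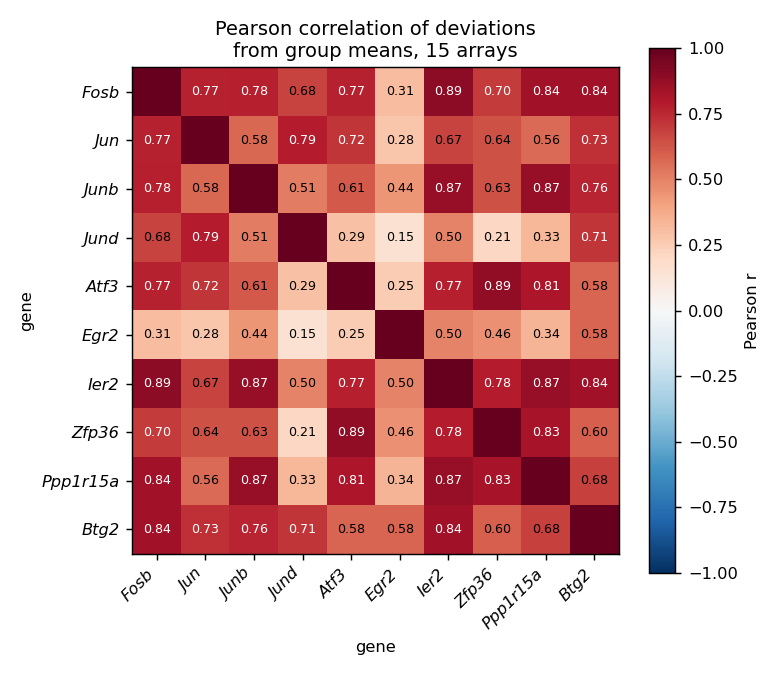
Pearson correlation between pairs of the 10 genes over 15 arrays, after the mean of its group was taken from each array. The 36 pairs without Egr2 run from 0.21 to 0.89, and the 9 pairs with Egr2 from 0.15 to 0.58.

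Over the deviations of 15 arrays from their group means, the 36 pairs without Egr2 had Pearson correlations from 0.21 to 0.89 with a median of 0.73, and the 9 pairs with Egr2 had a median of 0.34. Fosb and Ier2 were the closest pair. The median over all pairs was 0.87 within EpiSC, 0.46 within CF and 0.06 within aCF, each on 5 arrays that the genes share. Many pairs were negative within aCF, down to -0.90 for Fosb and Egr2 and, among pairs without Egr2, to -0.58 for Zfp36 and Btg2. Outside the set, the 6 named genes most like the mean of the 10 over the 15 array values were Pakap (0.93), Cxcl1 (0.92), Rhog (0.90), Klf4 (0.88), Champ1 (0.86) and Esf1 (0.86). By deviations from group means the 6 were Rab30 (0.92), Ccdc8 (0.91), Gatad2b (0.88), Mmp2 (0.87), 5430402E10Rik (0.87) and Cxcl1 (0.87). Cxcl1, a chemokine that attracts neutrophils, appeared in both. It stood at -0.47, -0.73, 0.06, 0.31 and 0.45 in EpiSC, at -0.76, -0.84, -0.37, -0.53 and -0.43 in aCF, and at 0.45, 0.30, 0.00, 0.08 and 0.21 in CF. Its EpiSC arrays stood in the same order as those of the immediate-early mean. Cxcl1 was picked for its correlation with that mean, so the shared order is not separate evidence.

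Outside the set, 3 of 11 other AP-1 and ATF family genes on the list had a value, Fosl2, Batf3 and Mafk. Fosl2, a Fos protein of the later wave, averaged 0.41 ± 0.17 in EpiSC, -0.10 ± 0.18 in aCF and -0.35 ± 0.37 in CF (SD, n = 5 each). Every EpiSC array of Fosl2 lay above the arrays of both fibroblast groups, and the gene rose in EpiSC by 0.52 ± 0.11 against aCF and by 0.76 ± 0.16 against CF, at Benjamini-Hochberg adjusted p values of 0.0137 and 0.00562. Between aCF and CF it differed by 0.24 ± 0.17 (adjusted p 0.357). Batf3, a partner of Jun proteins, rose in EpiSC against CF by 0.26 ± 0.08 (adjusted p 0.0238) and differed by 0.26 ± 0.09 between EpiSC and aCF (0.0922) and by -0.004 ± 0.077 between aCF and CF (0.98). Mafk, a small Maf protein, fell by 0.38 on the log2 scale in aCF against CF (SE 0.08, adjusted p 0.00945) and by 0.47 in EpiSC against CF (SE 0.13, adjusted p 0.0166), and differed by -0.09 ± 0.13 between EpiSC and aCF (0.746). Egr4 of the EGR family, Btg1 and Tob1 of the antiproliferative BTG/Tob family, and Ppp1r15b, the constitutive counterpart of Ppp1r15a, passed no test in any comparison. Their differences between aCF and CF were -0.03 ± 0.05, 0.06 ± 0.08, -0.05 ± 0.08 and 0.03 ± 0.11, in that order of genes. Btg1 lies on chromosome 10 and Tob1 on chromosome 11, so their rows rest on the additional 3 rows.

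Among other early transcription factors, 14 of 26 listed had a value. In aCF against CF, 2 of the 14 rose and 4 fell by Benjamini-Hochberg, against 8.74% and 9.38% of all rows, with a median of -0.06. Klf4, a zinc finger factor induced with the immediate-early genes, averaged -0.19 ± 0.13 in aCF and 0.89 ± 0.21 in CF, and fell by 1.08 on the log2 scale (SE 0.11, Bonferroni adjusted p 0.0225). That call was kept in 2 of 10 omissions, those of aCF3 (0.0438) and CF1 (0.0111), and p reached 0.142 in the others. Nr4a3, an orphan nuclear receptor, averaged -0.72 ± 0.64 in aCF and 0.30 ± 0.22 in CF, and fell by 1.03 (SE 0.27, Benjamini-Hochberg adjusted p 0.0234). In EpiSC the 14 had 2 higher and 1 lower against aCF (4.61% and 5.01% of all rows), with a median of 0.13, and 2 higher and 3 lower against CF (14.5% and 17.7% of all rows), with a median of -0.05.

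Feedback regulators had a value for 16 of 32. Between aCF and CF 3 rose and 2 fell by Benjamini-Hochberg, against 18.1% of all rows in either direction, and the median was 0.00. Plk3, a stress-responsive kinase, averaged 0.65 ± 0.14 in aCF and -0.55 ± 0.22 in CF and rose by 1.20 ± 0.11 (SE, Bonferroni adjusted p 0.0104), a call kept in 4 of 10 omissions (aCF1, aCF3, CF2 and CF5), with p up to 0.0695 in the others. Against aCF, 5 rose and 2 fell in EpiSC, where 9.61% of all rows passed. Zc3h12a, an endonuclease that degrades inflammatory mRNAs, averaged 0.49 ± 0.32 in EpiSC and -0.89 ± 0.12 in aCF and rose by 1.38 ± 0.14 (Bonferroni adjusted p 0.0433), a call kept in 1 of 10 omissions, that of EpiSC1 (0.0293), with p up to 0.253 in the others. Of all rows, 0.401% were higher by that rule. Against CF, 5 rose and 3 fell in EpiSC, where 32.2% of all rows passed.

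Secreted and surface products of the response had a value for 17 of 24, and the 4 that passed Bonferroni in aCF against CF were all higher in aCF. Il6, the cytokine interleukin-6, averaged 0.57 ± 0.78 in EpiSC, 0.27 ± 0.26 in aCF and -2.65 ± 0.30 in CF. All 5 arrays of both infarct groups lay above all CF arrays for Il6, and it rose in aCF against CF by 2.91 ± 0.16 (SE, Bonferroni adjusted p 6.61e-05), a call kept in 10 of 10 omissions. In EpiSC against CF it rose by 3.22 ± 0.33 (Bonferroni adjusted p 0.0388), a call kept in 2 of 10 omissions, those of EpiSC3 (0.0227) and EpiSC4 (0.0193), with p up to 0.237 in the others. Ereg, the growth factor epiregulin, rose in aCF against CF by 1.44 ± 0.15 (0.047), and Ccn2, a matricellular protein on chromosome 10, by 1.14 ± 0.12 (0.0484). Both calls were kept in 1 of 10 omissions, that of aCF1 (0.00499 for Ereg and 0.00303 for Ccn2), with p up to 0.272 for Ereg and 0.273 for Ccn2 in the others. By Benjamini-Hochberg 4 of the 17 rose and 3 fell in aCF against CF (18.1% of all rows passed), 6 rose and 3 fell in EpiSC against aCF (9.61%), and 8 rose and 2 fell in EpiSC against CF (32.2%).

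The other stress lists held no Bonferroni call between aCF and CF, and their Benjamini-Hochberg counts stand beside 8.74% of all rows higher and 9.38% lower. Heat shock genes (15 of 24 with a value) had 2 higher and 1 lower by Benjamini-Hochberg and a median of 0.01, and integrated stress response genes (15 of 21) had 1 higher and 5 lower and a median of 0.03. Among these, Ddit3, the stress factor CHOP, fell by 0.44 on the log2 scale in aCF against CF (SE 0.11, Benjamini-Hochberg adjusted p 0.0211). Ddit3 lies on chromosome 10, so its row rests on the additional 3 rows. The p53 targets (12 of 21) had 3 higher and 0 lower, with 6 at an unadjusted p below 0.05 in limma, against 6917 of 22206 rows. Oxidative stress and metallothionein genes (14 of 14) had 1 higher and 2 lower. In EpiSC against aCF, 2 small heat shock proteins passed Bonferroni. Hspb8 averaged 1.29 ± 0.10 in EpiSC, -0.05 ± 0.05 in aCF and -0.13 ± 0.39 in CF, and rose against aCF by 1.34 ± 0.06 (adjusted p 2.16e-05), a call kept in 10 of 10 omissions. Hspb1 averaged 0.76 ± 0.17 in EpiSC and -0.10 ± 0.10 in aCF, and rose by 0.86 ± 0.09 (0.0413), a call kept in 1 of 10 omissions, that of EpiSC5 (0.0179), with p up to 0.24 in the others. Gsr, glutathione reductase, averaged 1.13 ± 0.31 in EpiSC and -0.62 ± 0.12 in CF, and rose by 1.75 ± 0.14 (0.00249), a call kept in 10 of 10 omissions. Against aCF, 6 of 14 oxidative stress genes rose in EpiSC and 0 fell by Benjamini-Hochberg (4.61% and 5.01% of all rows). In limma 8 of 14 had an unadjusted p below 0.05, against 5317 of 22206 rows.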

How the data were processed

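Expression was measured on 15 Affymetrix arrays, 5 for each of EpiSC, aCF and CF, the groups being those of the labels. The deposited values are log2 expression. According to the series design text, the authors processed them in GeneSpring GX 12.5 with quantile normalization and ExonRMA16, then centred each probe set on its median over all samples. Base 2 is inferred from that method and the range of -4.77 to 5.52. The filter on background that the design text names could not be applied to centred values, so all 22206 rows were tested. Identifiers were paired with values 6900 rows down (3 more for chromosomes 10 and 11) and named through the platform annotation and RefSeq symbols; 6903 rows of values have no identifier.

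The 2 groups of a comparison were fitted alone, using lmFit and eBayes of limma 3.58.1 (R 4.3.3), with 2-sided tests. P values were adjusted over all rows by Bonferroni at a threshold of 0.05, as the design text states, and by Benjamini-Hochberg as an alternative. Intervals are at 95%. The fit was tested on simulated data. Precision is limited by the 5 arrays per group, which the labels call biological replicates.

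The members and gene lists were chosen with earlier results of these data known. All members are named; from each list up to 3 genes per direction and comparison past Bonferroni, relatives of the members, and the 6 genes most like the members' mean. Ddit3, Nr4a3, Batf3 and Mafk were named after their values were seen, and markers that the rule would name are mostly given as list means. The labels do not say that replicate numbers pair the arrays, so the main fits used no pairing.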

Additional observations from a re-analysis of the deposited data

How the results depend on the processing

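Direction and side of the Bonferroni threshold were recomputed under other fits, normalizations, filters and pairings. The count of members past Bonferroni in aCF against CF, 1 as reported, was 0 with all 15 arrays in 1 fit, 0 with the replicate block (Ppp1r15a at an adjusted p of 0.668), 0 without aCF4 and aCF5, 0 with identifiers as deposited, 2 with quantile normalization, 4 with only rows that have an identifier and 10 with Benjamini-Hochberg; with single arrays left out it ran from 1 to 2. With trend and robust it was 1, Zfp36 (adjusted p 0.0268) in place of Ppp1r15a. In EpiSC against CF it was 6 with Benjamini-Hochberg and 0 to 0 with single arrays left out, and in EpiSC against aCF it was 0 throughout. With the replicate block the Benjamini-Hochberg counts were 0, 10 and 5 for EpiSC against aCF, aCF against CF and EpiSC against CF. Correlations of same-numbered deviations ran from -0.06 to 0.16, which cannot show whether same-numbered arrays share a heart. Median differences with single arrays left out ran from 0.16 to 0.34, from -0.93 to -0.86 and from -0.69 to -0.45, in the same order.

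With identifiers as deposited the medians were -0.071, 0.07 and 0.07. That pairing reversed Fosb (-0.32), Jun (-0.19), Junb (-0.068), Atf3 (-0.44) and Btg2 (-0.074) in EpiSC against aCF, Fosb (0.29), Junb (0.16), Jund (0.078), Zfp36 (0.26) and Btg2 (0.062) in aCF against CF, and Junb (0.092), Jund (0.15), Ier2 (0.10), Zfp36 (0.60) and Ppp1r15a (0.048) in EpiSC against CF. Other rows are then read under the same names. Without the 3 additional rows Egr2 was -0.37 in aCF against CF and -0.53 in EpiSC against CF. Quantile normalization put Atf3 at 0.0497 in EpiSC against CF. Small differences changed sign when single arrays were left out: in EpiSC against aCF, Jun ran from -0.0895 to 0.0855, Fosb from -0.0255 to 0.30 and Ppp1r15a from -0.0035 to 0.22, and in EpiSC against CF, Atf3 ran from -0.22 to 0.14. Outside the set, Bonferroni calls were kept in 7 of the 7 other settings run for Hspb8 and Il6 (aCF against CF), 5 of 7 for Plk3, 4 of 7 for Hspb1, 3 of 7 for Ccn2 and Zc3h12a, 2 of 7 for Klf4 and Ereg, and 5 of 6 for Gsr and Il6 (EpiSC against CF). The cause of these changes was not tested. Centred values hide signal over background, so dim probe sets could not be told from bright ones.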
